A study of Arabidopsis thaliana with 12 samples.

Results

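In rosette leaves of Arabidopsis thaliana, 441 of 14496 wild-type H3K4me3 peaks (3.04%) had no counterpart in an atx3/4/5 mutant, kept one in an sdg2 mutant, and lay over an H3K4me2 peak that was missing from atx3/4/5 as well. They were chosen by the presence or absence of peaks in 5 deposited lists, so their ChIP-seq values are a description. The rule uses no RNA value, although it was drawn up with earlier results of these data known. The plants were of the Columbia (Col-0) accession and 4 weeks old, and grew in 16 h days at 22 °C with 8 h nights at 20 °C. Wild type, labelled as such, gave H3K4me2, H3K4me3 and input ChIP-seq libraries, and so did the mutant labelled atx3/4/5, named for the genes ATX3, ATX4 and ATX5. The sdg2 mutant gave H3K4me3 and input libraries. There was 1 ChIP-seq library per genotype and antibody, and 2 RNA-seq libraries each of wild type and atx3/4/5 which the authors combined into 1 value per gene. No RNA of sdg2 was analysed here. The alleles are not given in the sources used here, and every value stands without a measure of spread among libraries.

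Histone H3 can carry up to a trimethyl group on lysine 4. H3K4me3 lies mainly at the starts of transcribed genes, whereas H3K4me2 in plants extends over gene bodies and is found on weakly transcribed genes as well. ATX3, ATX4 and ATX5 belong to the Trithorax-related SET-domain proteins that deposit these marks, and SDG2 (ATXR3) is another such enzyme, known for a broad contribution to H3K4me3. In the regions described here a wild-type peak of each mark had no counterpart in atx3/4/5, while H3K4me3 still had one in sdg2.

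Counts of peaks followed the successive conditions. Of the 14496 wild-type H3K4me3 peaks, 1427 had no peak in atx3/4/5 (9.84%) and 1363 had none in sdg2 (9.40%). Of those 1427, 1127 overlapped an sdg2 peak, and 976 of the 1127 also overlapped a wild-type H3K4me2 peak. In 441 of the 976 an overlapping H3K4me2 peak was itself absent from atx3/4/5, where 31.5% of all 20585 wild-type H3K4me2 peaks were absent. In the other 535 the H3K4me2 was kept. The rule fixes these shares, so nothing is read from them. In 434 of the 441 regions every overlapping wild-type H3K4me2 peak was absent from atx3/4/5, and in the other 7 a further one was kept. The 441 regions involved 447 H3K4me2 peaks.

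The regions were mostly weak H3K4me3 peaks. Their scores from the authors' peak caller, a measure from the lists that chose them, had a median of 152 and ranged from 50.03 to 1902, against a median of 769 for the whole wild-type list. In the lowest-scoring quintile of the list 359 of 2900 peaks were such regions, and in the highest quintile 1 of 2899 was. Their median width was 775 bp against 1080 bp for all peaks. Other peaks absent in atx3/4/5 were weak too. Those kept in sdg2 had a median score of 159 where H3K4me2 was kept and 142 where wild type had no H3K4me2 peak. Those absent in both mutants had a median score of 108. Median widths were 832, 714 and 752.5 bp in that order. ChIP-seq depth is unknown, and its part in the absence of weak peaks was not tested.

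**Figure D1:**
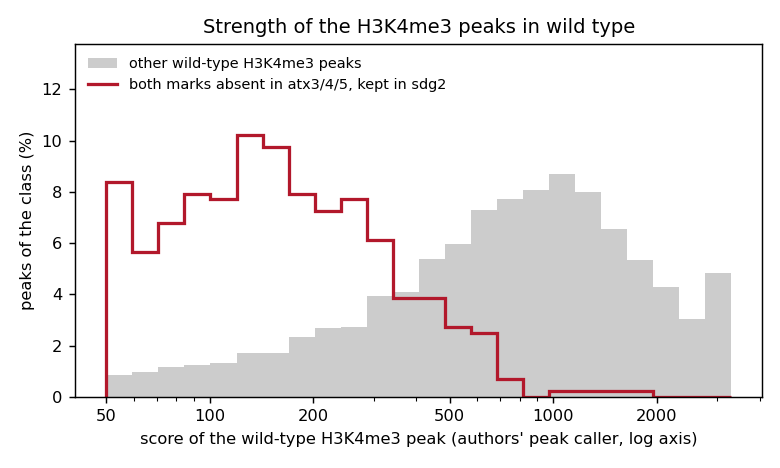
Distribution of wild-type H3K4me3 peak scores (log axis) as the percentage of peaks of each class, for the 441 regions (red line) and the other wild-type H3K4me3 peaks (grey). The regions centre on a median of 152, and the whole list on 769.

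In 415 of the 441 regions the missing H3K4me2 peak covered at least 50% of the H3K4me3 peak, and the lowest cover was 3.11%. The median H3K4me2 score was 241, against 197 for all wild-type H3K4me2 peaks and 100.02 for all those absent from atx3/4/5. A median of 93.0% of the H3K4me3 peak lay under the missing H3K4me2 peak, and 103 of the 441 regions lay under it entirely. At PDLP6 (AT2G01660), which encodes a plasmodesmata-located protein, the H3K4me2 score was 3100, the highest among the missing H3K4me2 peaks, and the H3K4me3 score only 58.05. At the cytokinin synthesis gene IPT5 (AT5G19040) the H3K4me2 score was again 3100, with an H3K4me3 score of 227. At the abscisic acid synthesis gene NCED5 (AT1G30100) they were 3100 and 535. The region over AT2G36090 and CASP1 also had 3100, with an H3K4me3 score of 293, so the highest H3K4me2 score was a tie.

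In sdg2 the regions were narrower, as were H3K4me3 peaks in general. The overlapping sdg2 peak had a median width of 604 bp, and it was narrower than the wild-type peak in 368 of 441 regions. The median ratio of sdg2 width to wild-type width was 0.801 here and 0.661 over all 13133 wild-type peaks with an sdg2 counterpart. The sdg2 scores had a median of 260 and ran from 50.6 to 1585, against a median of 401 for the whole sdg2 list.

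Few regions lay near the limit of the rule by distance to an atx3/4/5 H3K4me3 peak, and more did by score. The lowest score in the wild-type H3K4me3 list was 50.03. A wild-type H3K4me3 score of at least 100 was reached by 317 of the 441, and an sdg2 score of at least 100 by 372. The nearest atx3/4/5 H3K4me3 peak was a median of 2690 bp away, and 11 of the 441 regions had one within 200 bp. The closest inside the rule was at AT3G01513, 20 bp from an atx3/4/5 peak and with a score of 68.2, followed by the region over AT5G57890 and AT5G57900 at 43 bp and a score of 155. Among peaks that met the other conditions and failed on H3K4me3 in atx3/4/5, the smallest overlaps with a mutant peak were 447 bp at AT5G26790, with a score of 394, and 465 bp at a peak over no locus, with a score of 203.

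Most regions lay on or across genes. A locus of the RNA table was overlapped by 412 of the 441 (93.4%, exact 95% interval 90.7 to 95.6). That is a lower share than the 14357 of 14496 (99.04%) for all wild-type H3K4me3 peaks. Of the 412, 319 touched 1 gene, 87 touched 2 and 6 touched 3. Of the 29 that touched no locus, 15 were within 500 bp of one. Regions wholly inside a single locus numbered 89 (20.2%, exact 95% interval 16.5 to 24.2, counting error only), compared with 1131 of 14496 (7.80%) for all wild-type H3K4me3 peaks, which are wider. By chromosome, 91 were on chromosome 1, 74 on 2, 83 on 3, 68 on 4 and 125 on 5. Chromosome 5 held 28.3% of the regions (24.2 to 32.8) and 23.5% of all wild-type H3K4me3 peaks. Chromosome 1 held 20.6% of the regions (17.0 to 24.7) and 25.8% of those peaks. A difference by chromosome was not tested. Few were neighbours, since 20 of 441 had another region within 5000 bp. Together the regions touched 510 genes, 487 of them protein-coding by the RefSeq table.

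RNA of the genes under these regions more often was lower than higher in atx3/4/5. In whole leaves, fewer cells of a type and less RNA per cell cannot be told apart. Of the 510 genes the authors tested 438, and 93 were called at a deposited q (adjusted p) under 0.05, 90 of them lower and 3 higher, in the authors' deposited table. That is 21.2% of the tested genes under the regions, where 10.3% of all 19021 tested genes were called. The lower calls made up 20.5% (exact 95% interval 16.9 to 24.6, counting error only), against a background of 5.40%, and the higher calls 0.685%, against 4.92%. The 90 genes are 8.75% of all 1028 genes called lower. The median log2 fold change, atx3/4/5 over wild type, was -0.96 for the 438 genes and -0.04 for all tested genes in the authors' deposited table. Of the 438, 348 (79.5%) had the lower FPKM (RNA fragments scaled to transcript length and library size) in atx3/4/5, compared with 51.4% of all tested genes. Among the 345 that were not called, 258 were below wild type too. By unadjusted p under 0.05, 177 genes (40.4%) were found by the authors' deposited table, where the background was 25.6%, and 167 of the 177 were lower.

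**Figure D2:**
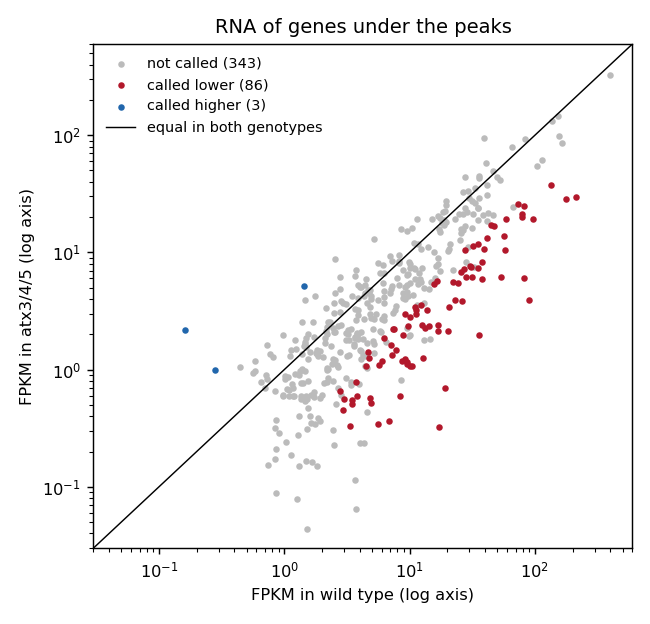
FPKM in atx3/4/5 against FPKM in wild type (both on log axes) for tested genes under the 441 regions, with the line of equality. The 90 genes called lower include 4 listed at 0 in atx3/4/5 and so not drawn, 6 genes with a 0 in 1 genotype are left out in all, and 3 genes called higher stand above the line.

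Wild-type expression of these genes was modest. The median wild-type FPKM was 5.18 against 9.09 for all tested genes in the authors' deposited table, and 409 of 438 reached at least 1, while 10 reached 100. In atx3/4/5 their median was 2.60 against 9.22 for all tested genes in the authors' deposited table. The 72 genes not tested were all under 1 in both genotypes, and 11 of them were listed at 0 in both.

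The 12 regions with the highest H3K4me3 scores, from 609 to 1902, included 5 with a gene called lower. Of all 441 regions 90 (20.4%) had one, and a difference was not tested. The strongest covered AT2G19780 (chromosome 2, peak 8522567 to 8524326), whose FPKM was 5.09 in wild type and 2.21 in atx3/4/5 in the authors' deposited table, with a q of 0.119. The next covered ADS1 (AT4G29140; chromosome 4, 14368866 to 14370732), also called ADP1, at 10.05 and 7.43 (q = 0.583 by the authors' deposited table). Neither gene passed the authors' test, and the gene under the next peak did. AT4G12690 went from 9.13 to 2.97 (q = 0.0320 by the authors' deposited table). Of the remaining 9 regions, 4 carried a gene called lower in the authors' deposited table, namely AT4G40085 (at a locus shared with AT4G40080), AT4G29240, AT2G36145 and AGP26. AGP26, an arabinogalactan protein gene whose region also touches NET3C, fell from 81.8 to 25.1 (q = 0.0105 by the authors' deposited table). At ATL43, AT3G61490, AT2G22900, AT5G24318 and AT3G60110 no gene was called in the authors' deposited table. ATL43, a RING-type ubiquitin ligase gene, stood at 2.38 and 1.13, and AT3G60110 was under 1 in both genotypes and was not tested in the authors' deposited table.

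With both genotypes at 1 FPKM or more, the largest fall among called genes under the regions was at AT3G15780 (chromosome 3, 5341426 to 5342557), from 89.5 in wild type to 3.91 in atx3/4/5, 22.9-fold, in the authors' deposited table. The non-coding AT2G41312 followed, from 35.8 to 1.96, and then AT4G22830, from 82.2 to 6.06 (q = 0.00184 by the authors' deposited table). All 3 stood above the wild-type median of 5.18 before the fall. Next came AT2G32795 (10.2-fold lower), AT4G09490 (9.59-fold), AT3G09540 (9.46-fold) and AT3G57320 (9.41-fold) in the authors' deposited table. AT1G68260, also ALT3, an acyl-lipid thioesterase gene, went from 53.7 to 6.19 (q = 0.00184 by the authors' deposited table). AT5G56990 (8.59-fold lower), the aquaporin gene SIP1;2 (8.21-fold), the translation factor gene ELF5A-1 (7.89-fold) and AT2G42900 (7.46-fold) completed the 12 in the authors' deposited table. SIP1;2 shares its locus with NAC088, so its value and its assignment to the region are uncertain. Above that floor 71 genes under the regions fell and 1 rose, in 328 tested, or 72 calls where the background above the floor was 9.29%.

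**Figure D3:**
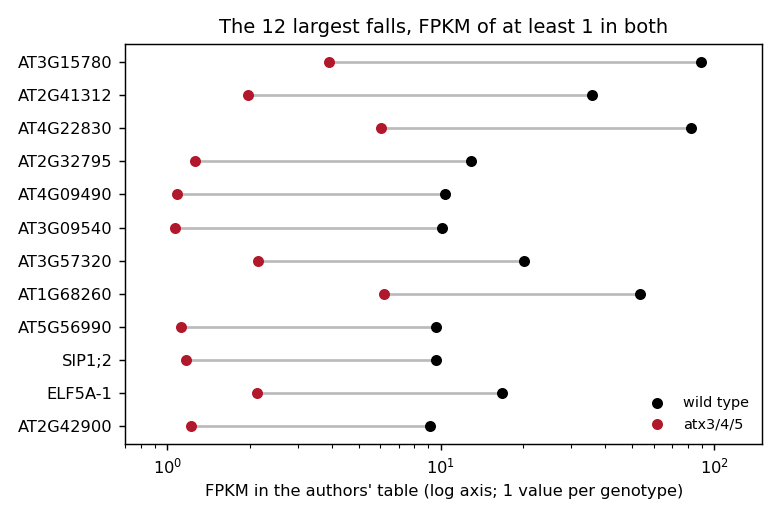
FPKM in wild type (black) and atx3/4/5 (red), log axis, 1 authors' value per genotype, for the 12 largest falls among called genes under the regions with at least 1 FPKM in both genotypes. The widest gap is that of AT3G15780, from 89.5 to 3.91.

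Other genes fell to low mutant levels, and 19 of the 90 were under an FPKM of 1 in atx3/4/5. MAP1B (AT3G25740), an organellar methionine aminopeptidase gene, went from 17.2 to 0.325, 52.9-fold (q = 0.00907 by the authors' deposited table). SSL2 (AT2G41290), a strictosidine synthase-like gene, went from 19.1 to 0.696 (q = 0.00184 by the authors' deposited table). AT1G49790, AT2G35345, AT3G46150 and AT5G25990 were listed at 0 in atx3/4/5 and at 0.916, 3.48, 0.766 and 1.60 in wild type in the authors' deposited table. Wild-type values are low for these 4 as well. Over the 86 lower genes above 0 in atx3/4/5, the fold ranged from 2.59 to 52.9 with a median of 4.88, and 61 of all 90 were more than 4-fold lower.

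The 3 most expressed genes under the regions come first here, and the other genes of this paragraph were chosen for their symbols after their values were seen. A symbol was given to 22 of the 90 in the RefSeq table, and 68 had none. PLAT2, a PLAT-domain protein gene and the second most expressed of the tested genes under the regions, went from 214 to 29.6 (q = 0.00184 by the authors' deposited table). Next in rank was AT2G36145, from 177 to 28.3 in the authors' deposited table, whose locus is shared with a tRNA gene. GSTF8, a glutathione transferase and the most expressed of all, stood at 399 and 329 and was uncalled (q = 0.771 by the authors' deposited table). Among regulators, AXR3, an Aux/IAA repressor of auxin response, fell from 79.1 to 21.5 (q = 0.00654 by the authors' deposited table). NF-YB2, a subunit of the CCAAT-binding factor, was called lower from 134 to 37.8 (q = 0.0197 by the authors' deposited table), at a locus it shares with NUDT2. PAR2, a repressor in shade avoidance, fell from 47.4 to 16.8 (q = 0.0266 by the authors' deposited table). The calcium sensor gene CBL9, from 11.2 to 2.99, and the heterotrimeric G-protein subunit gene AGG3, from 10.99 to 3.41, fell too in the authors' deposited table. In metabolism, SMO2-2, a sterol methyl oxidase gene, fell from 41.7 to 13.3, and SQE2, a squalene epoxidase gene, from 2.76 to 0.657, in the authors' deposited table. APK4, an adenosine phosphosulfate kinase gene, fell from 11.1 to 3.21 and RBL10, a rhomboid-like gene, from 26.1 to 3.85 in the authors' deposited table.

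Of the 438 tested genes under the regions 3 rose, and in each the region touched under 10% of the locus. Low coverage was common, since 146 of the 438 genes had from 0.0340% to 21.6% of the locus under the peak. Among other genes with their own locus, 10.9% were called higher in the longest quintile and 4.52% in the shortest. Nothing is read from the coverage of 3 genes. The number of risers was 7 where a mutant peak had to cover 50% of the wild-type peak to count as present. AT3G21540 went from 1.44 to 5.14 (q = 0.0133 by the authors' deposited table), with 0.326% of its locus under the peak. NET1A, an actin-associated gene, went from 0.281 to 0.999 (q = 0.0340 by the authors' deposited table), with 9.66% of its locus under the peak. CYP76C2, a cytochrome P450 gene, went from 0.161 to 2.16 (q = 0.0344 by the authors' deposited table), with 8.68% under the peak.

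Lower calls were more frequent where the region covered more of the locus. Split into 3 equal groups by the percentage of locus under the peak, 11 of 146 genes were called lower in the lowest group, 30 of 146 in the middle and 49 of 146 in the highest. Their median log2 fold changes were -0.21, -0.97 and -1.56, and their median locus lengths 4113, 2345 and 1148 bp. Coverage and length thus move together and cannot be told apart in this split. Across the 432 genes above 0 in both genotypes, which share their libraries, Spearman's rho with the log2 fold change was -0.42 for coverage and 0.38 for length (Pearson's r -0.33 and 0.27). It was -0.11 for the H3K4me3 score and 0.0033 for the H3K4me2 score (Pearson's r -0.07 and 0.04). By equal groups of H3K4me3 score, 25, 29 and 36 of 146 genes were called lower from the weakest to the strongest. By equal groups of H3K4me2 score they were 31, 32 and 27.

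Gene length was examined in all genes because fold changes in this table varied with it. Among genes with a locus of their own, 33 of 98 genes under the regions were called lower in the shortest quintile of loci (33.7%, exact 95% interval 24.4 to 43.9), and 366 of 3054 others (11.98%). In the next 3 quintiles the shares were 30.7%, 23.7% and 16.7% under the regions, against 7.02%, 4.36% and 3.16% elsewhere. In the longest quintile they were 2 of 40 (5.00%) and 62 of 3114 (1.99%), with intervals that overlap. The median log2 fold change was below that of other genes in each of the 5 length classes, from -1.69 against -0.56 in the shortest to 0.18 against 0.58 in the longest. Grouped by mean FPKM of the genotypes, lower calls under the regions were 8.22%, 21.8%, 26.03%, 31.0% and 37.9% from the lowest to the highest quintile, and 1.83%, 3.75%, 4.42%, 5.84% and 9.27% elsewhere.

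**Figure D4:**
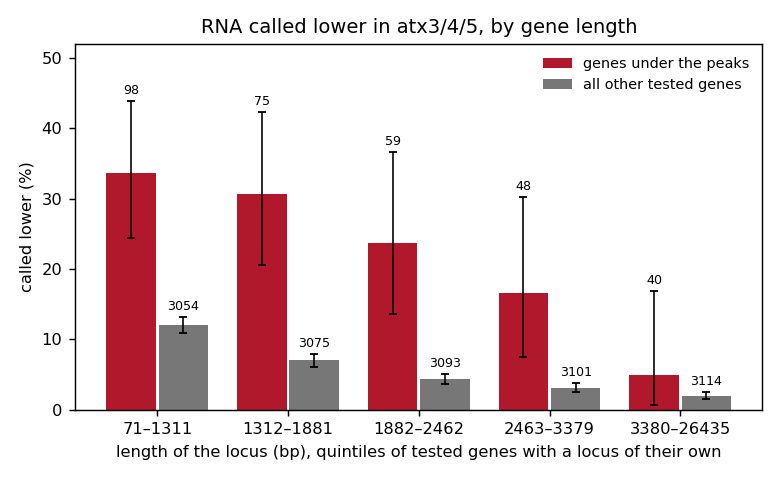
Percentage of tested genes called lower in atx3/4/5, by length of locus in bp, for genes under the 441 regions (red) and all other tested genes (grey) with a locus of their own. Error bars are exact 95% intervals, numbers are genes, and the red bars fall from 33.7% to 5.00%.

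Genes next to the regions were called lower at a share near the background. The nearest locus on each side that no region touched gave 522 tested genes, of which 22 were called lower (4.21%) and 17 higher (3.26%), with a median log2 fold change of -0.06. No region had more than 1 gene called lower. Of 71 regions over more than 1 tested gene, 15 had 1 gene called lower and 0 had 2. At regions over 2 or more loci, 21 of 166 tested genes (12.7%) were called lower. With that share few regions could have 2, so nothing is read from the 0. In 11 of the 15 the lower gene had the longer stretch under the peak, and in the other 4 the genes shared 1 locus and could not be separated. The median log2 fold change of the partner genes was -0.07. MAP1B, for example, shares its region with EDF3, an AP2/B3 factor gene with a log2 fold change of -0.13 in the authors' deposited table. GS1 fell 4.13-fold in the authors' deposited table, beside the DNA repair gene XRCC3 at a log2 fold change of -0.28. AT3G59390 was called lower at -1.83, next to the farnesyltransferase subunit gene FTA at 0.38, in the authors' deposited table. At the 4 shared loci the partners were all uncalled, but 2 were well below wild type. Their log2 fold changes were -3.10 (AT4G40080), -1.76 (NUDT2), -0.05 (AT3G47580) and 0.33 (ATNTH1) in the authors' deposited table.

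Loci with and without a remaining peak in atx3/4/5 were then set side by side. In 351 genes no atx3/4/5 peak of either mark touched the locus, and 79 of the 291 tested were called lower (27.1%, exact 95% interval 22.1 to 32.6) and 1 higher. In 159 genes the locus still held such a peak elsewhere, and 11 of the 147 tested were called lower (7.48%, interval 3.79 to 12.99) and 2 higher. The median log2 fold changes were -1.28 and -0.28. The loci of the second group are longer, with a median of 3864 bp against 1718 bp. By length quintile from the shortest to the longest, lower calls with no peak left were 33 of 94, 20 of 70, 12 of 49, 6 of 33 and 1 of 16 among genes with a locus of their own. With a peak left they were 0 of 4, 3 of 5, 2 of 10, 2 of 15 and 1 of 24, so that the order is the opposite in the second quintile, where 5 genes had a peak left. A difference at like length was not tested.

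The values were then set beside those of the nearest classes of H3K4me3 peaks, with no test of the difference, since each class rests on the same libraries. Where H3K4me3 was absent in atx3/4/5 and kept in sdg2 but H3K4me2 was kept, 53 of 529 tested genes were called lower (10.02%, exact 95% interval 7.60 to 12.9) and 17 higher, with a median log2 fold change of -0.34. Where wild type had no H3K4me2 peak to lose, 33 of 156 were called lower (21.2%, interval 15.0 to 28.4) and 0 higher, with a median of -1.05. Where H3K4me3 was absent in both mutants, 57 of 299 were called lower (19.1%, interval 14.8 to 24.0) and 4 higher, with a median of -0.73. The share under the regions was 20.5%, and whether it differs from that of any class was not tested. Where H3K4me3 was kept in both mutants and only H3K4me2 was absent from atx3/4/5, 89 of 2089 were called lower (4.26%) and 52 higher, and where both marks were kept the numbers were 273 (2.79%) and 427 of 9782. Both of these shares are below the background of 5.40%. The exact 95% interval of the 4.26% was 3.44 to 5.22, counting error only. Over tested genes at any wild-type H3K4me3 peak, these genes included, the share was 4.64%, and a difference was not tested.

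**Figure D5:**
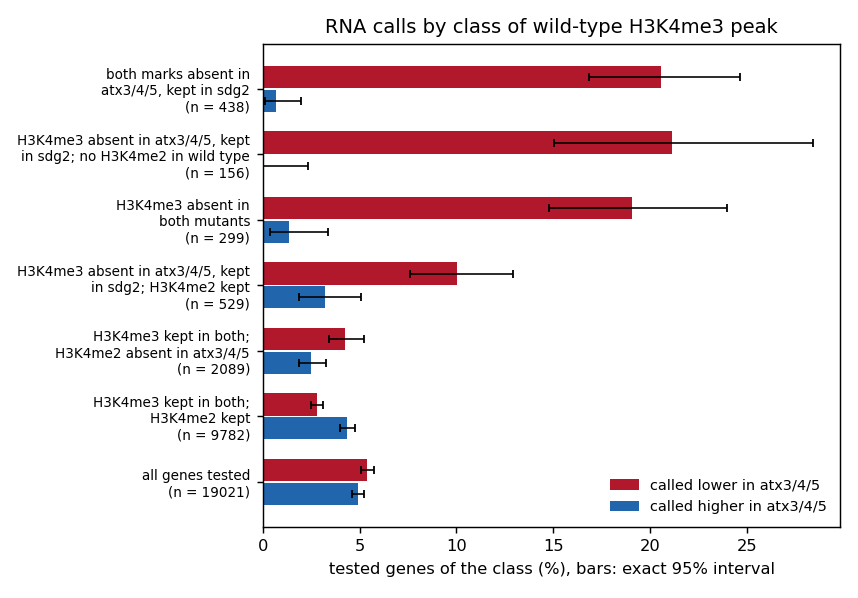
Percentage of tested genes called lower (red) and higher (blue) in atx3/4/5 by class of wild-type H3K4me3 peak, with exact 95% intervals (counting error only). The 3 upper classes stand at 20.5%, 21.2% and 19.1% lower, and the class with H3K4me2 kept at 10.02%.

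The classes differ in peak strength, so they were compared within the lowest-scoring quintile of wild-type H3K4me3 peaks. There 65 of 347 genes under the regions were called lower (18.7%, exact 95% interval 14.8 to 23.2), against 34 of 427 where H3K4me2 was kept (7.96%, interval 5.58 to 10.9). Without an H3K4me2 peak in wild type 28 of 125 were called lower (22.4%, interval 15.4 to 30.7), and with H3K4me3 absent in both mutants 52 of 269 (19.3%, interval 14.8 to 24.6). Where both marks were kept in this quintile, 17 of 885 were called lower (1.92%, interval 1.12 to 3.06) and 98 higher (11.1%). Median scores within the quintile were 127, 132, 134, 101 and 201 in that order.

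Genes of pathway and family lists were looked up under the regions, where 510 of all 33557 genes lay. Of 22 lists, 13 had a gene under a region and 9 had none, 28 genes in all, and nothing is read from that number. Of the 28, 20 were tested, 2 called lower and 1 higher in the authors' deposited table. Calls were 5.40% lower and 4.92% higher over all tested genes, and 20.5% and 0.685% under the regions. PDLP6 fell from 16.6 to 5.75 (q = 0.0175), and the AP2/ERF factor gene RAP2.1 from 12.2 to 3.55 (q = 0.0232 by the authors' deposited table). The riser was CYP76C2. Of the other tested genes in the lists, 12 had the lower FPKM in atx3/4/5 and passed no test. Among them were the floral MADS-box gene SEP4 (3.62 and 1.59), the P450 gene CYP78A6 (5.96 and 2.10, q 0.0580), RAP2.9 (7.73 and 3.47) and the abscisic acid hydroxylase gene CYP707A1 (1.42 and 0.763) in the authors' deposited table. Homeobox genes under the regions were BEL10 (11.7 and 11.9), AtHB23 (2.205 and 0.993), HAT14 (4.30 and 2.70) and HB27 (3.66 and 1.92), all uncalled in the authors' deposited table. Other uncalled genes were the cell wall genes XTH8 (20.2 and 10.2) and XTH9 (155 and 98.1), WRKY27 (1.498 and 1.57), LBD11 (2.51 and 3.05), GA2OX2 (2.85 and 3.84), CYP86A4 (2.55 and 4.50), CYP705A21 (9.54 and 4.55) and CYP78A9 (4.89 and 4.27), and CASP1 (0.854 and 0.209), in the authors' deposited table. IPT5, NCED5, ATGA2OX1, GA3OX4, NAC088, CYP705A20, CYP77A9 and CLE45 were under the regions but too low to be tested.

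Over the full lists in the authors' deposited table, calls are read beside the shares of all tested genes, 5.40% lower and 4.92% higher. AP2/ERF factors had 10 lower and 1 higher of 42, secreted peptide genes 10 and 0 of 42, and expansin and XTH genes 9 and 3 of 43. Auxin synthesis and transport had 3 and 0 of 15, gibberellin and abscisic acid synthesis 2 and 0 of 10, and brassinosteroid genes 2 and 1 of 14. Salicylic acid and defence genes had 0 lower and 16 higher of 25, receptor-like kinases 2 and 18 of 75, WRKY factors 0 and 14 of 52, NAC factors 1 and 11 of 59, and cytochrome P450 genes 8 and 16 of 126. In the other lists with a call, 1 or 2 genes were called in a direction, from which nothing is read. These were MYB factors (2 lower and 0 higher of 54), cytokinin genes (1 and 0 of 22), bHLH factors (1 and 0 of 15), the stomatal lineage (1 and 0 of 13), homeobox factors (1 and 2 of 53), LBD factors (0 and 1 of 15), peroxidases (1 and 2 of 9) and H3K4 methyltransferases with their COMPASS partners (0 and 2 of 13). Plasmodesmata-located proteins had 1 call each way in 7. Polycomb target regulators gave 0 calls in 21, with 1 lower at an unadjusted p under 0.05, and Casparian strip genes 0 in 3 with none at that p, in the authors' deposited table. The regions held 510 of all 33557 genes, and they touched 0 of 25 salicylic acid and defence genes, 0 of 118 receptor-like kinases and 1 of 71 WRKY factors. At so low a share, lists of these sizes cannot show a shortage, so nothing is read from these counts.

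The targeted genes and leaf markers were checked once. The targeted loci were under none of the regions, and their FPKM values in wild type and atx3/4/5 were 4.17 and 4.38 (ATX3), 1.05 and 2.88 (ATX4) and 3.93 and 3.76 (ATX5) in the authors' deposited table. None of them was called, so they do not check the genotype labels. SDG2 stood at 0.884 and 3.55 (q = 0.00184 by the authors' deposited table). The mesophyll genes RBCS1A (16497 and 9297) and CA1 (4171 and 1457) were abundant in the authors' deposited table, and CAB1 was listed at 0 in wild type under a status for too many reads. Guard cell genes FAMA, KAT1 and MYB60 ranged from 1.65 to 5.78, phloem genes SUC2 and APL from 7.73 to 303, and xylem genes VND7 and IRX3 from 0.486 to 1.63 over both genotypes in the authors' deposited table. Of these SUC2 was called lower in the authors' deposited table, from 303 to 96.3, and no other of these markers passed. By the authors' deposited table the root gene RHD6 was listed at 0 in both genotypes. The other root gene checked, CASP1, is under a region at a shared locus. It was at 0.854 in wild type and 0.209 in atx3/4/5 in the authors' deposited table, uncalled. By the same table the trichome genes GL2 and GL3 were at 1.06 and 0.0238 in wild type and at 2.84 and 0.175 in atx3/4/5. GL3 is under a region and was not tested. The part of cell makeup in the lower RNA was not tested.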

How the data were processed

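ChIP-seq and RNA-seq samples were grouped by title. The peak lists were used as the authors deposited them, with a score per peak. Bowtie 1.0.1, MACS 1.4.2, TopHat2 2.0.10, Cufflinks 2.2.1 and the build TAIR10 are named, per the submitters' processing notes. Their roles and the use of strand are not given in the sources used here. Each list comes from 1 library set against an input, per the names in the peak files. The authors' deposited table gives FPKM per gene and genotype, a p-value and a q-value. Its log2 column was not used, and 0 other columns of per-sample values were left out. ChIP-seq and RNA depth is unknown, which limits precision. The labels do not say that the 2 RNA libraries per genotype are from different plants, and the p-values may measure technical spread.

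Peaks overlapped when they shared at least 1 bp, also with loci. Locus starts in the table were read as counted from 0, since RefSeq has the start 1 higher at 8985 of 12656 loci with the same end, and are printed from 1. Fold changes are log2 ratios of the deposited FPKM with no pseudocount. A call is status OK and q under 0.05. Of 33557 genes 4249 share a locus, so reads and overlap cannot be assigned among them. Names come from RefSeq TAIR10.1 (32810 genes matched). Shares have exact Clopper-Pearson 95% intervals. The peak procedure was tested on simulated lists. Python 3.11.15, pandas 2.3.3 and scipy 1.17.1 were used. The regions, gene lists and tests were chosen with earlier results of these data known. Named genes were those under the 12 strongest regions, the 12 largest falls and rises at 1 FPKM or more in both, list members, the 3 highest wild-type FPKM and the targeted genes. Others were chosen after their values were seen. Promoter motifs, planned at first, and sequences are not analysed here.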

Additional observations from a re-analysis of the deposited data

How the results depend on the processing

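The 441 regions became 259 when both wild-type lists were limited to scores of at least 100, and between 317 and 505 under the other 6 definitions. Genes called under the regions then numbered 55, of which 54 were lower, in 256 tested. Under the other definitions, overlaps and the FPKM floor there were 72 to 96 calls against 93, and 177 at an unadjusted p under 0.05. The 3 higher genes became 7 of 96 calls where a mutant peak had to cover 50% of the wild-type peak, 10 at the unadjusted p, and 1 to 3 elsewhere. The number of genes, 510, became 466 and 411 with stricter overlap. The median log2 fold change of -0.96 was -0.79 where both genotypes had 1 FPKM or more (-0.06 for all such genes), -0.69 with a pseudocount of 1, and -1.15 over genes with their own locus and no atx3/4/5 H3K4me3 peak, an alternative chosen after seeing the data. It lay between -0.89 and -1.09 under the other 4 settings, among them centring by length (-0.89). No paired analysis was possible because the table combines the libraries of a genotype, and leaving out a replicate was not possible for the same reason and with 1 ChIP-seq library each. Weak peaks and unknown depth limit what absence means.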
